A study of Mus musculus with 8 samples.

Results

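The 9 genes described here carry adrenergic and muscarinic signals in the heart: the receptors Adrb1, Adra1a, Adra1b and Chrm2, the G protein alpha subunits Gnas, Gnai2 and Gnao1, and the adenylyl cyclases Adcy5 and Adcy6. They were taken by symbol from a table of 23847 rows, using the row with the highest mean where a symbol recurred. Poly(A) RNA of C57BL/6 mouse ventricles at postnatal day 21 was sequenced in 8 strand-specific libraries. Of these, 4 came from mice with a cardiac knockout of Med1 (Med1cKO), a subunit of the Mediator complex that links transcription factors to RNA polymerase II, and 4 came from mice labelled WT, which the design text gives as Med1 fl/fl. Both groups share strain, age and tissue, and the floxed allele is thus present in WT as well. The promoter that drove the deletion, and whether each library was 1 animal, were not stated in the labels, so the p-values reflect the spread among libraries, which may be technical.

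Noradrenaline from sympathetic nerves binds beta-adrenergic receptors, which couple to the stimulatory subunit encoded by Gnas and so to adenylyl cyclase, cyclic AMP and protein kinase A. Acetylcholine from the vagus nerve binds the muscarinic receptor Chrm2, which couples to inhibitory (Gi and Go) alpha subunits, restrains the cyclase and opens a potassium channel through the beta-gamma dimer. Alpha-adrenergic receptors of the Adra1 class couple to Gq, phospholipase C and protein kinase C.

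Levels are in FPKM, a fragment count divided by transcript length and by the total of the library. All 9 genes passed a minimum mean of 1 FPKM over the 8 libraries, as did 11974 genes in all. A gene was called when the Benjamini-Hochberg adjusted p of limma, fitted on log2(FPKM + 1) over all those genes, was under 0.05. Log2 changes are Med1cKO minus WT on that scale, which understates the change of weakly expressed genes. Of the 9 genes 5 were lower in Med1cKO ventricles (Adrb1, Adra1a, Adra1b, Chrm2 and Adcy6), 3 were higher (Gnas, Gnai2 and Gnao1) and Adcy5 was not called. That was 55.6% lower and 33.3% higher, against 16.4% lower and 44.9% higher among all genes tested. After median-of-ratios rescaling, which removes a common shift between the groups, 5 members were again lower and 3 higher, against 26.9% lower and 27.0% higher among all genes (53.9% called). After quantile normalization the counts were the same, against 25.6% lower and 28.7% higher (54.3% called). Med1cKO and WT libraries did not overlap for the 8 called members, against 57.0% of all genes tested (41.7% with Med1cKO above and 15.3% with it below). Most of the transcriptome was called as deposited (61.3%), so a call by itself does not set these genes apart. The 9 genes were chosen with earlier results of these data known, so the shares above do not test whether they stand apart. Adra1a, counted among the lower and the non-overlapping members, passed the minimum only through WT (mean 0.150 FPKM in Med1cKO and 2.24 FPKM in WT).

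The promoter sequences of members that moved in either direction are shown because the receptor genes were lower and Gnao1 was higher. They come from RefSeq (GRCm38.p6, the mm10 build), are windows of 300 bases of which 50 follow the gene start, and were found for 6 of the 9 genes. Capitals mark the GC box GGGCGG on either strand (written CCGCCC where it lies on the other strand).
Adrb1, chr19:56721867-56722166, plus strand: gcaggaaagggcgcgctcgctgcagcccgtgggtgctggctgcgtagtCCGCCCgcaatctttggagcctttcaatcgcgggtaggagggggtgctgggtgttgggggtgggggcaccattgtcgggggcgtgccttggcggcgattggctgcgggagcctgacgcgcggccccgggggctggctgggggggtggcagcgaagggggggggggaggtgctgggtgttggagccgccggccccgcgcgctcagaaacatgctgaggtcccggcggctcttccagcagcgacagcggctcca
Adra1b, chr11:43836440-43836739, minus strand: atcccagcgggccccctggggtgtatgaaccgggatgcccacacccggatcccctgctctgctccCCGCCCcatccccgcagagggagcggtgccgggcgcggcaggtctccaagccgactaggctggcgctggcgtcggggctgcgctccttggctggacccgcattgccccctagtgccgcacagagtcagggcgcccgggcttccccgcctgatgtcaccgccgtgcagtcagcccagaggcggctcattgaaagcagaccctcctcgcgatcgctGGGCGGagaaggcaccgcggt
Chrm2, chr6:36387834-36388133, plus strand: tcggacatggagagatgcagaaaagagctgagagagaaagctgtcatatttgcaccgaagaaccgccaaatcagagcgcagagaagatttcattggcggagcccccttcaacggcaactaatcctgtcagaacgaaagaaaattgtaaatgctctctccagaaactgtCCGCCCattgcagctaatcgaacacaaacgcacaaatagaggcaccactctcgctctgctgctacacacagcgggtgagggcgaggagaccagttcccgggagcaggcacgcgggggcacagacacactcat
Gnao1, chr8:93810588-93810887, plus strand: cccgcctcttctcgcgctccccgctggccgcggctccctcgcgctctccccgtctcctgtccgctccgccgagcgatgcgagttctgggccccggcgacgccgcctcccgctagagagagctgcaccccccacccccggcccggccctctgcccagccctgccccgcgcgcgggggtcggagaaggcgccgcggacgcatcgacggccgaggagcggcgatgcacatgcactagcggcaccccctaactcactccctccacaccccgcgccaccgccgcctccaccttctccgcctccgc
The motif GGGCGG was present in the promoter nearest the measured locus start for 5 of the 6 genes, the exception being Gnao1, whose window is GC-rich but lacks these letters, and in 35.7% of 32851 mouse promoters of the same length. That share counts every window, not 1 per gene. Other windows of Adra1b (chr11:43901188-43901487) and Gnas (chr2:174327499-174327798 and chr2:174327518-174327817) lacked GGGCGG, so its presence depended on the start. Neither AGGTCA, the core site bound by many nuclear receptors, nor TGACGTCA, the palindrome bound by cyclic AMP response factors, was found on either strand in any of the 6, against 16.3% and 1.79% of all promoters. TATAAA was found for Gnas alone, against 13.6% of all promoters, and there depended on the start: RefSeq gives Gnas 4 windows, and the one at chr2:174329756-174330055 lacks TATAAA and holds 3 GC boxes. The reverse complements of these motifs were counted, TGACGTCA is its own reverse complement, and no motif here contains another.

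The ends of the coding sequences of the 3 alpha subunits are shown because this stretch encodes the part of the protein that contacts the receptor, and because it shows how far reads from these related genes can be told apart. Each line holds the 60 coding bases before the stop codon (GENCODE M21, mm10), with capitals at the 17 positions where Gnao1 and Gnai2 differ. Gnas is left in lower case throughout.
Gnao1, chr8:93966993-93967052, plus strand: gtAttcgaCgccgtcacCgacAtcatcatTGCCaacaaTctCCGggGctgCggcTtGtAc
Gnai2, chr9:107615638-107615697, minus strand: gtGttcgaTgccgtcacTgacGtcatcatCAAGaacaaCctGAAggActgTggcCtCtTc
Gnas, chr2:174346326-174346385, plus strand: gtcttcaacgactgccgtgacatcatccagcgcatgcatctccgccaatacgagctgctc
Over their aligned coding sequence Gnao1 and Gnai2 were 70.8% identical, with a longest shared run of 31 bases. Adcy5 and Adcy6 were 74.4% identical with a longest run of 29 bases, and Adra1a and Adra1b 66.6% identical with a longest run of 15 bases. Other genes overlap 6 of the 9 on the annotation, among them antisense transcripts at Adcy6, Gnao1 and Gnas. The libraries were strand-specific, but the labels do not say whether counting used strand, so reads from antisense partners at these loci cannot be told apart.

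The targeted gene was lower in each Med1cKO library, with 7.80, 8.37, 7.89 and 9.15 FPKM, against 15.5, 16.1, 10.6 and 16.8 FPKM in WT (exact two-sided permutation p = 0.0286, the smallest that 70 assignments allow). Fragment totals are unknown, but the step that 1 fragment gives among the lowest values put relative depth at 0.974 to 1.10 across libraries. The median log2 change of all genes was 0.25, and after rescaling 3236 genes were higher and 3223 lower in place of 5371 and 1964. Changes after rescaling are therefore given for the members, and for other genes where they differ by over 1.5 times or end a call. Summed markers of ventricular cardiomyocytes were 16754 to 26429 FPKM in Med1cKO and 49569 to 55578 FPKM in WT, and all 8 of that list were called lower (7 after quantile normalization). Atrial markers summed to 5053 to 7943 FPKM in Med1cKO and 204 to 388 FPKM in WT, with 5 of the 8 tested higher and 1 lower. Med1cKO 4 stood apart among its group for the atrial myosin light chain Myl7, at 726 FPKM against 2.50 to 61.6 FPKM in the other Med1cKO libraries, though over the whole atrial list its sum of 7509 FPKM lay beside 7476, 7943 and 5053 FPKM in Med1cKO 1, 2 and 3. Myl7 was thus a small part of the atrial sum in every Med1cKO library, and other genes of the list carried it. Whether the higher sum in Med1cKO came from atrial cells was not tested. In bulk tissue, fewer cells of a type and less RNA per cell cannot be told apart.

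All 4 receptors were lower in the knockout, and no receptor had a Med1cKO library as high as any WT library. Adrb1, the main beta-adrenergic receptor of the cardiomyocyte (chromosome 19, 56722372 to 56724862), had 1.96, 3.05, 2.17 and 2.82 FPKM in Med1cKO, against 4.41, 4.80, 4.21 and 5.08 FPKM in WT. Its mean was 2.50 ± 0.516 FPKM in Med1cKO and 4.62 ± 0.390 FPKM in WT (SD, n = 4 each), so that Med1cKO retained 54.1% of the WT level. The log2 change was -0.69 ± 0.119 (limma SE, adjusted p = 0.000804), and -0.91 after rescaling.

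Adra1b, an alpha-adrenergic receptor of the Gq-coupled class (chromosome 11, 43774606 to 43836332), was the more abundant of the Adra1 pair. It had 5.61, 4.53, 4.40 and 4.72 FPKM in Med1cKO, against 15.4, 15.5, 11.9 and 13.3 FPKM in WT. The Med1cKO level was 34.3% of WT, and the libraries within each group lay close together. By limma it changed by -1.37 ± 0.106 on the log2 scale (adjusted p = 8.62e-06), and -1.61 after rescaling.

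Adra1a, its Gq-coupled relative (chromosome 14, 66635251 to 66771168), was near the bottom of the measured range. It was at 0.137 and 0.462 FPKM in Med1cKO 1 and 4 and listed at 0 in Med1cKO 2 and 3, against 2.50, 2.07, 3.48 and 0.923 FPKM in WT. The groups did not overlap, although the lowest WT library was within 0.5 FPKM of the highest Med1cKO library. The log2 change was -1.45 ± 0.256 (adjusted p = 0.000929 in limma), -1.56 after rescaling and -3.48 with a pseudocount of 0.1 FPKM in place of 1. Without WT 3 its mean was under the minimum and it was not tested, and the authors' deposited table gave it a q-value of 0.172.

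Chrm2, the muscarinic receptor of the heart (chromosome 6, 36388084 to 36524774), was the most abundant receptor of the 4. It had 17.9, 18.0, 15.4 and 23.7 FPKM in Med1cKO, against 37.7, 30.7, 56.8 and 35.0 FPKM in WT. WT 3 was well above the other WT libraries, and the groups were apart with or without it. Its log2 change was -1.03 ± 0.189 (adjusted p = 0.00115 in limma), -1.30 after rescaling and -0.86 without WT 3. The lower receptor levels stood beside the lower sum of ventricular cardiomyocyte markers given above, whose part in them was not tested.

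**Figure D1:**
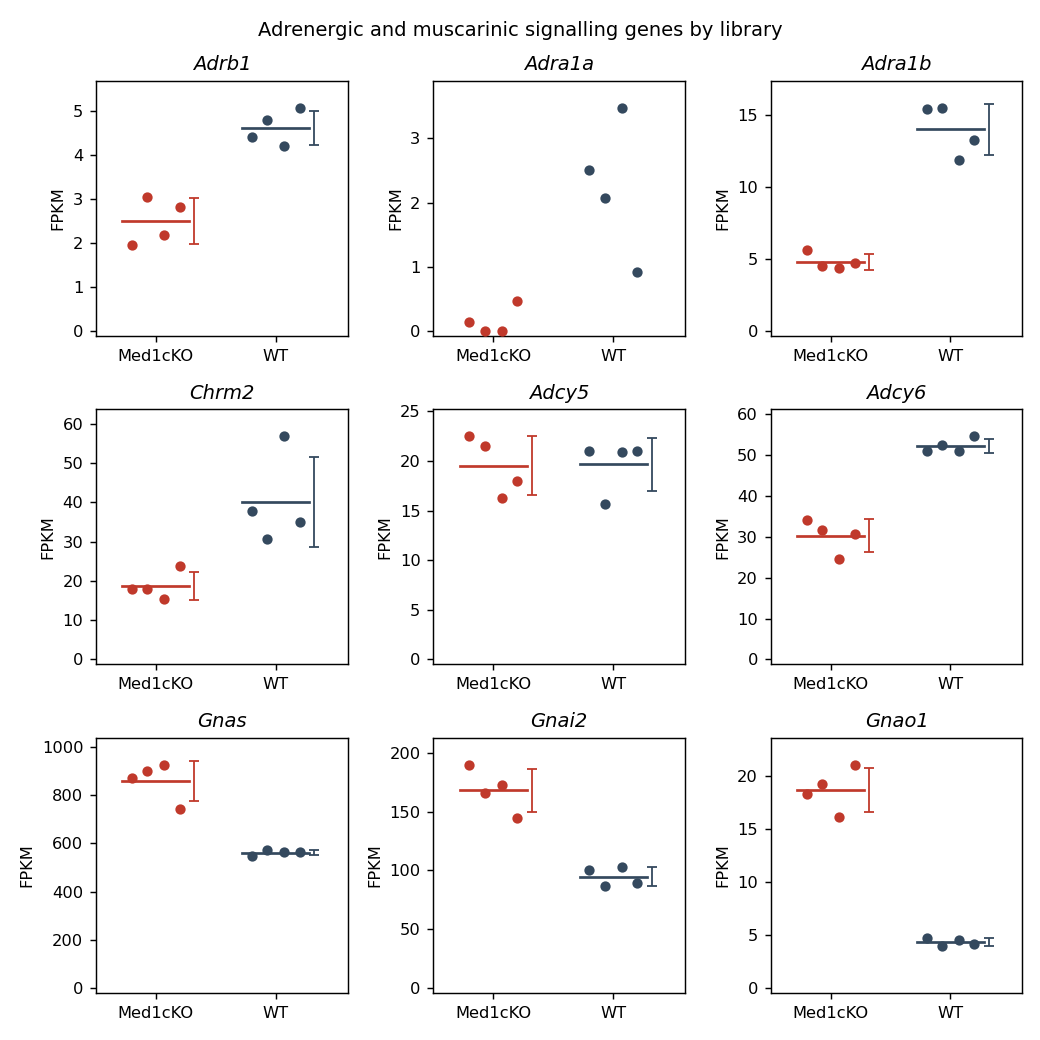
Expression of the 9 genes in each library, in FPKM on a linear axis from 0, with Med1cKO libraries in red and WT libraries in dark blue. Horizontal lines are group means and vertical bars are SD (n = 4), left out for Adra1a, which is listed at 0 in Med1cKO 2 and 3; every gene but Adcy5 has groups that do not overlap.

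The 3 G protein alpha subunits were all higher in the knockout, whether they stimulate or inhibit the cyclase. Among all genes tested, 44.9% were higher as deposited and 27.0% after rescaling. Gnas, which encodes the stimulatory subunit (chromosome 2, 174284320 to 174346742), was by far the most abundant of the 9 genes. It had 872, 901, 927 and 741 FPKM in Med1cKO, against 547, 574, 564 and 563 FPKM in WT. The WT libraries were within a narrow band and the lowest Med1cKO library was well above it. The ratio of means was 1.53, and the log2 change was 0.61 ± 0.0847 (adjusted p = 0.000228 in limma), against 0.33 (adjusted p = 0.0139) after rescaling. The authors' deposited table gave a log2 change of 0.33 and a q-value of 0.104 and did not mark it significant. The locus makes several coding and noncoding transcripts from alternative promoters, among them the antisense Nespas, which gene-level values do not separate.

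Gnai2, the most abundant inhibitory alpha subunit (chromosome 9, 107614138 to 107635342), had 190.0, 165, 172 and 145 FPKM in Med1cKO, against 100.4, 86.7, 103 and 88.9 FPKM in WT. Each Med1cKO library was above each WT library, and the ratio of means was 1.77. Its log2 change was 0.82 ± 0.0994 (adjusted p = 0.000101 in limma), and 0.54 (adjusted p = 0.00139) after rescaling.

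Gnao1, which encodes the Go alpha subunit abundant in neurons and also present in heart (chromosome 8, 93810838 to 93969388), had the largest rise of the 9. It had 18.3, 19.2, 16.1 and 21.0 FPKM in Med1cKO, against 4.69, 3.90, 4.50 and 4.17 FPKM in WT. The lowest Med1cKO library was several times the highest WT library, and the ratio of means was 4.32. The log2 change was 1.88 ± 0.0936 (adjusted p = 9.29e-07 in limma), and 1.64 after rescaling. Its deposited change ranked 210 from the top of the 11974 genes tested.

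Because Gnao1 is also a nerve gene, markers of nerve and Schwann cells are given beside it. Their summed level was 76.1 to 138 FPKM in Med1cKO and 13.6 to 15.0 FPKM in WT, and in Med1cKO most of that sum was Uchl1, at 61.8 to 126 FPKM in Med1cKO and 6.35 to 8.21 FPKM in WT. Of the 11 markers 3 passed the minimum, 1 of them called higher (Uchl1). The median log2 change of those 3 was 0.235, near the 0.246 of all genes tested. After rescaling these medians were 0.0245 and 0.00652. Snap25, a neuronal gene under the minimum and so not tested, was listed at 0 in Med1cKO 2 and 3 and in all WT libraries, but not in every Med1cKO library. Smooth muscle and pericyte markers summed to 946 to 1217 FPKM in Med1cKO and 473 to 651 FPKM in WT (6 of 12 higher and 4 lower, and 4 higher and 4 lower after rescaling), and fibroblast markers to 1486 to 2622 FPKM in Med1cKO and 1081 to 1415 FPKM in WT (6 of 10 higher and 1 lower, and 4 higher and 1 lower after rescaling). Among all genes tested 44.9% were higher and 16.4% lower, and 27.0% and 26.9% after rescaling. Macrophage and endothelial marker sums overlapped between the groups. The part of these cell types in the higher alpha subunits was not tested.

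Of the 2 cyclases, Adcy6 was lower in the knockout and Adcy5 was not called. Adcy6, the calcium-inhibited cyclase most abundant here (chromosome 15, 98589986 to 98607633), had 34.2, 31.8, 24.6 and 30.7 FPKM in Med1cKO, against 51.1, 52.6, 51.1 and 54.6 FPKM in WT. The WT libraries differed little and every Med1cKO library was lower, the mean being 57.9% of WT. The log2 change was -0.78 ± 0.0992 (adjusted p = 0.000136 in limma), and -1.05 after rescaling. Adcy5, its close relative and the other main cyclase of the adult cardiomyocyte (chromosome 16, 35155636 to 35304549), had 22.5, 21.5, 16.2 and 17.9 FPKM in Med1cKO, against 21.0, 15.7, 20.9 and 21.0 FPKM in WT. The groups overlapped, at 16.2 to 22.5 FPKM in Med1cKO and 15.7 to 21.0 FPKM in WT. The log2 change was -0.01 ± 0.130 (adjusted p = 0.953 in limma), and -0.28 (adjusted p = 0.108) after rescaling, so no setting called it and its direction relative to other genes was not resolved.

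**Figure D2:**
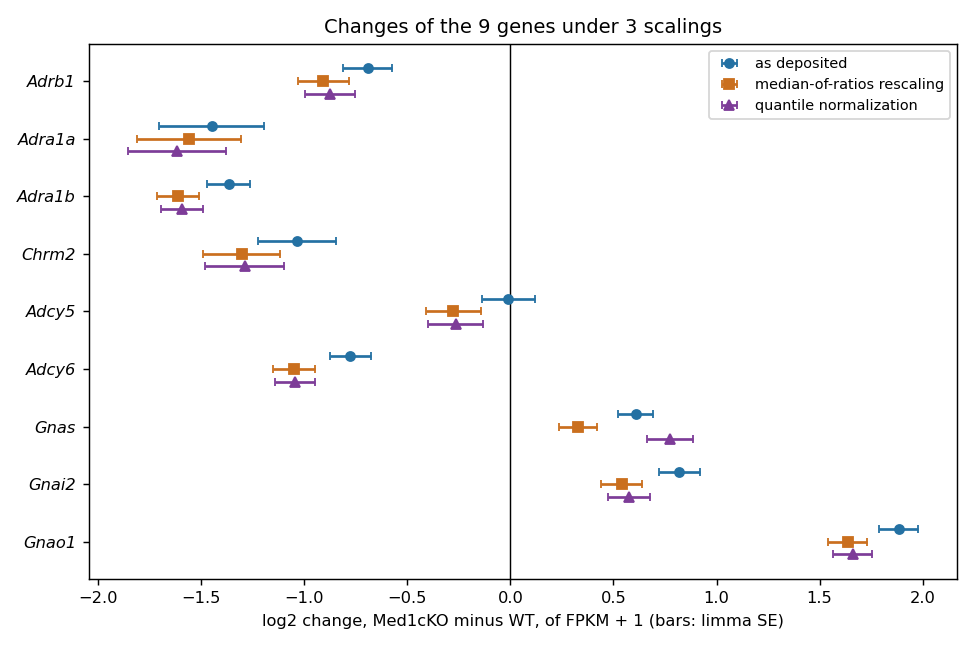
Log2 change of each of the 9 genes, Med1cKO minus WT, on the log2(FPKM + 1) scale under 3 scalings (circles as deposited, squares after median-of-ratios rescaling, triangles after quantile normalization), with limma standard errors as bars. The direction of all 8 called genes was the same under the 3 scalings, while Gnas was 0.61, 0.33 and 0.77.

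Ratios were taken within each library, on FPKM + 1, so that the scaling of the library matters little except for genes near 0 FPKM. Of 5 ratios compared, 2 had groups that did not overlap. The log2 ratio of Gnao1 to Gnai2 was -3.10 ± 0.284 in Med1cKO and -4.17 ± 0.0509 in WT (SD, n = 4 each), a difference of 1.07 ± 0.144 (SE). The log2 ratio of Adcy5 to Adcy6 was -0.61 ± 0.0912 in Med1cKO and -1.38 ± 0.209 in WT, a difference of 0.77 ± 0.114. Each had an exact two-sided permutation p of 0.0286, the smallest possible, and 0.0714 after Benjamini-Hochberg adjustment over the 5, which misses the threshold and is the lowest value that 2 such ratios among 5 can reach.

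The other 3 ratios overlapped between the groups. The log2 ratio of Gnas to Gnai2 was 2.35 in Med1cKO and 2.56 in WT, a difference of -0.21 (exact permutation p = 0.0571, 0.0952 adjusted). That of Adrb1 to Chrm2 was -2.49 in Med1cKO and -2.83 in WT, a difference of 0.34 ± 0.255 (exact permutation p = 0.257, 0.321 adjusted). That of Adra1a to Adra1b was -2.35 in Med1cKO and -2.27 in WT, a difference of -0.08 (exact permutation p = 0.771). The last depended on the pseudocount, being -1.96 at 0.1 FPKM, turned to 0.17 without WT 3 and to 0.0546 after rescaling. Whether the 2 Adra1 receptors fell unequally was therefore not resolved.

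**Figure D3:**
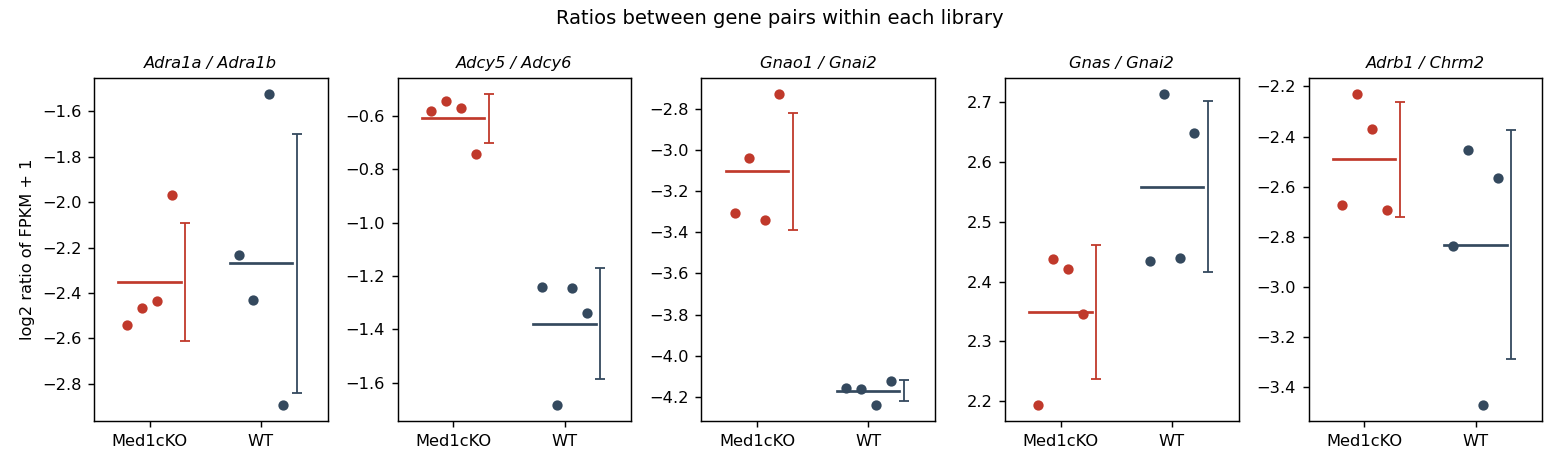
Log2 ratio of FPKM + 1 between 5 gene pairs within each library, on axes that do not start at 0, with group means as lines and SD as bars (n = 4 each). Med1cKO libraries (red) are all above WT libraries (dark blue) for Adcy5 to Adcy6 and for Gnao1 to Gnai2, and the groups overlap in the other 3 panels.

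FPKM corrects for length, so the members can be ranked by level within each group. In Med1cKO the order was Gnas, Gnai2, Adcy6, then Adcy5, Chrm2 and Gnao1 with overlapping libraries, then Adra1b, Adrb1 and Adra1a. In WT the order was Gnas, Gnai2, then Adcy6 and Chrm2 with overlapping libraries, Adcy5, Adra1b, then Adrb1 and Gnao1 with overlapping libraries, and Adra1a. Gnao1 thus stood at the level of Chrm2 and Adcy5 in Med1cKO and at the level of Adrb1 in WT.

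Set against their families, Gnao1 made up 7.46% to 10.7% of the summed FPKM of the Gi and Go alpha subunits in Med1cKO and 3.62% to 3.88% in WT. Gnai2 made up 73.7% to 80.6% in Med1cKO and 81.9% to 83.0% in WT, and the sum itself was 197 to 236 FPKM in Med1cKO and 105 to 124 FPKM in WT. The share of Gnas among all measured alpha subunits overlapped, at 72.6% to 75.5% in Med1cKO and 73.9% to 76.7% in WT. Among the membrane adenylyl cyclases, Adcy6 made up 34.0% to 43.1% in Med1cKO and 55.1% to 58.8% in WT. Adcy7 made up 10.8% to 25.2% in Med1cKO and 3.99% to 4.66% in WT. The summed cyclase level was 72.4 to 85.4 FPKM in Med1cKO and 89.4 to 94.7 FPKM in WT.

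**Figure D4:**
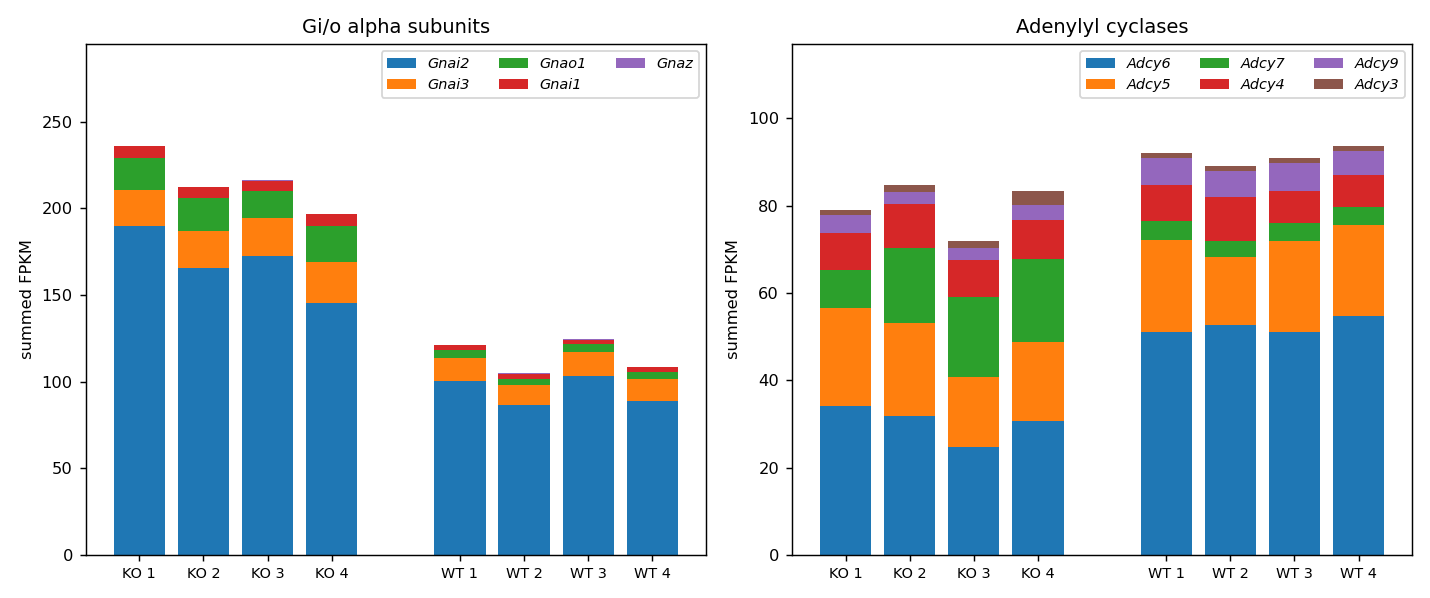
Summed FPKM of the Gi and Go alpha subunits and of membrane adenylyl cyclases in each library, stacked by gene. Bars KO 1 to KO 4 are Med1cKO libraries, left of WT 1 to WT 4. The cyclases drawn are Adcy3 to Adcy7 and Adcy9. Adcy1, Adcy2 and Adcy8, each averaging at most 0.347 FPKM, are not drawn but count in the cyclase sum. The alpha subunit sum is 197 to 236 FPKM in Med1cKO and 105 to 124 FPKM in WT, and the Adcy7 share of the cyclase sum, 10.8% to 25.2% in Med1cKO, is 3.99% to 4.66% in WT.

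The authors' deposited table, from pooled estimates per group, marked 6 of the 9 genes significant, against 45.8% of 12539 genes tested there. The 6 were Adrb1 (log2 -1.17), Adra1b (-1.83), Chrm2 (-1.37), Adcy6 (-1.07), Gnai2 (0.55) and Gnao1 (1.83), each with a q-value of 0.000211 in that table. Adra1a (log2 -4.21, q-value 0.172), Adcy5 (log2 -0.29, q-value 0.0728) and Gnas were not marked in the authors' deposited table. The log2 changes there are of pooled FPKM with no pseudocount, and on another scaling. Gnas, for example, was pooled at 912 FPKM in Med1cKO and 724 FPKM in WT, against means over libraries of 860 and 562 FPKM. These log2 changes are thus not on the scale of the limma changes given above.

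Genes whose profile over the 8 libraries most resembled that of Adrb1 were Khdrbs3 (Pearson r = 0.993), Mrpl12 (0.993) and Oxnad1 (0.992), all on log2(FPKM + 1). For Adra1a they were Sox7 (r = 0.983), Anks1 (0.971) and Epm2a (0.968). An r above 0.95 with Adrb1 was reached by 272 genes and with Adra1a by 16 genes, and such values mostly follow the difference between the groups. Khdrbs3, for example, had 11.5 to 21.4 FPKM in Med1cKO and 32.9 to 41.2 FPKM in WT.

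The counts of the pathway lists stand beside 44.9% higher and 16.4% lower among all genes tested, and 27.0% and 26.9% after rescaling. The lists are small, and a count near those shares does not set a list apart. Among 10 other alpha subunits, 6 passed the minimum, of which 4 were higher and 2 were not called, with a median log2 change of 0.62, and the same counts held after rescaling. Gnai1, an inhibitory subunit, averaged 6.28 ± 0.413 FPKM in Med1cKO and 2.71 ± 0.203 FPKM in WT (log2 change 0.97). Gnai3, also inhibitory, averaged 21.9 ± 1.37 FPKM in Med1cKO and 12.7 ± 1.26 FPKM in WT (0.75, and 0.48 after rescaling). Gna13 changed by 0.73 (0.47 after rescaling), and Gnaq, which carries Adra1 signals to phospholipase C, by 0.51 (0.25 after rescaling). Of 10 beta and gamma subunits tested, 6 were higher and 1 lower as deposited, and 3 higher and 2 lower after rescaling. Gng8 averaged 2.40 ± 0.464 FPKM in Med1cKO and 0.226 ± 0.0396 FPKM in WT (log2 change 1.46), Gnb1 changed by 0.77 (0.50 after rescaling) and Gng12 by 0.54 (0.28 after rescaling), while Gnb2, at 0.40, was not called after rescaling (adjusted p = 0.177).

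Among 11 other cyclases and cyclic AMP effectors tested, 4 were higher and 2 lower, 3 higher and 3 lower after rescaling, and 3 higher and 4 lower after quantile normalization. Adcy7, a calcium-insensitive cyclase, had 8.60, 17.0, 18.3 and 19.1 FPKM in Med1cKO, against 4.33, 3.57, 4.02 and 4.01 FPKM in WT (log2 change 1.69 ± 0.214, adjusted p = 0.000126 in limma). Med1cKO 1 was the lowest of its group and still above every WT library. Adcy9 averaged 3.16 FPKM in Med1cKO and 6.04 FPKM in WT (-0.77), and Rapgef4, a cyclic AMP-activated exchange factor of the Epac family, 2.28 FPKM in Med1cKO and 5.81 FPKM in WT (-1.06). Popdc3, of the cyclic AMP-binding Popeye family, changed by 0.90.

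Protein kinase A transcripts moved in both directions, with 2 of 7 higher and 2 lower, and 2 higher and 4 lower after rescaling. The catalytic subunit gene Prkacb averaged 35.2 FPKM in Med1cKO and 20.4 FPKM in WT (log2 change 0.75, and 0.48 after rescaling), and the regulatory subunit gene Prkar1a 206 FPKM in Med1cKO and 141 FPKM in WT (0.55, and 0.27 after rescaling). The inhibitor gene Pkig fell by 0.81 on the log2 scale. The other catalytic subunit gene, Prkaca, was called at -0.39 (adjusted p = 0.0218 in limma) and at -0.67 after rescaling, but its groups overlapped and it was not called without Med1cKO 3 (adjusted p = 0.0559) or without WT 3 (0.0630).

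Of 10 anchoring proteins of protein kinase A, 4 were higher and 3 lower, and 1 higher and 5 lower after rescaling. Akap2 rose to 98.1 to 117 FPKM in Med1cKO, against 28.3 to 35.0 FPKM in WT (log2 change 1.77). Akap6, which anchors the kinase at the nuclear envelope and sarcoplasmic reticulum of muscle, had 16.0 to 21.8 FPKM in Med1cKO and 25.3 to 32.2 FPKM in WT (-0.59). Akap7 changed by -0.64 and Akap1, of the mitochondrial outer membrane, by -0.54 (-0.82 after rescaling).

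Phosphodiesterases, which degrade cyclic nucleotides, were mixed. Of 15 tested, 7 were lower and 3 higher with a median of -0.36, against 16.4% lower among all genes, and 9 were lower and 2 higher after rescaling. Pde1c, a calmodulin-dependent enzyme, had 1.32, 2.81, 1.37 and 1.45 FPKM in Med1cKO, against 18.7, 17.9, 17.0 and 16.7 FPKM in WT (log2 change -2.79 ± 0.154, adjusted p = 1.50e-06 in limma). Its Med1cKO level was 9.89% of WT. Pde4d, a cyclic AMP-specific enzyme that bounds beta-adrenergic signals, averaged 2.69 FPKM in Med1cKO and 5.97 FPKM in WT (-0.93). Pde1a, of the same family as Pde1c, changed by 0.79, and Pde9a, a cyclic GMP-specific enzyme, by 0.94 with overlapping groups. Pde9a was not called after rescaling (adjusted p = 0.0587) or without Med1cKO 3 (0.0502).

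Receptor kinases and arrestins, which phosphorylate and uncouple activated receptors, gave 4 higher and 3 not called of 7 tested, against 44.9% higher among all genes. After rescaling 3 were higher and 2 lower. Adrbk2, now named Grk3, had 21.2, 19.2, 15.6 and 16.7 FPKM in Med1cKO, against 4.49, 5.48, 8.18 and 3.66 FPKM in WT (log2 change 1.61). Grk5, a main kinase of cardiac receptors, had 15.6 to 22.5 FPKM in Med1cKO and 6.57 to 8.59 FPKM in WT (1.22), and Grk4 changed by 1.37. Arrb1, encoding a beta-arrestin, changed by 0.55 and was not called after rescaling (adjusted p = 0.0856).

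RGS proteins, which speed the switching off of alpha subunits, gave 2 higher and 4 lower of 10, and the same counts after rescaling. Rgs2, which acts mainly on Gq, had 8.11, 9.73, 6.38 and 8.12 FPKM in Med1cKO, against 28.4, 38.4, 22.3 and 33.0 FPKM in WT (log2 change -1.78 ± 0.168, adjusted p = 2.41e-05 in limma). Rgs7 changed by -1.13, Rgs11 by 1.49 and Rgs12 by 0.44 (0.21 after rescaling). In the Gq branch, 6 of 9 phospholipase C and protein kinase C genes were higher and 3 not called, and 2 were higher after rescaling. Among all genes tested 44.9% were higher, and 27.0% after rescaling. Prkca averaged 11.6 FPKM in Med1cKO and 4.58 FPKM in WT (1.17) and Prkcd 8.74 FPKM in Med1cKO and 5.10 FPKM in WT (0.67, and 0.43 after rescaling). Prkce (0.47) and Plcb4 (0.36) were not called after rescaling (adjusted p = 0.136 and 0.342).

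Several targets of the pathway fell steeply. Of 18 protein kinase A substrates and phosphatases, 8 were lower and 5 higher, and 8 lower and 3 higher after rescaling. Pln, the phospholamban gene, whose protein restrains the calcium pump of the sarcoplasmic reticulum, had 119 to 194 FPKM in Med1cKO and 3117 to 3831 FPKM in WT (log2 change -4.47). Ryr2, the calcium release channel, averaged 20.4 FPKM in Med1cKO and 146 FPKM in WT (-2.80), and Tnni3, cardiac troponin I, 1331 FPKM in Med1cKO and 6791 FPKM in WT (-2.36). Rrad, a small G protein through which adrenergic signals reach the calcium channel, changed by -1.47, with WT 3 at 27.9 FPKM and the other WT libraries at 58.4 to 69.0 FPKM. Ryr2 and Tnni3 are also among the ventricular cardiomyocyte markers.

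Both genes of the acetylcholine-activated potassium channel downstream of Chrm2 were lower. Kcnj3 had 0.410, 0.899, 0.890 and 1.91 FPKM in Med1cKO, against 20.3, 14.4, 22.2 and 21.6 FPKM in WT (log2 change -3.38 ± 0.215, adjusted p = 2.95e-06 in limma). Kcnj5 had 5.49, 7.98, 3.98 and 15.5 FPKM in Med1cKO, against 29.6, 37.1, 29.1 and 34.5 FPKM in WT (-2.01 ± 0.313, adjusted p = 0.000445 in limma). Both channel genes, which are best known from atria, were highest among the knockouts in Med1cKO 4. So were the members Chrm2, Adra1a and Gnao1, while the other members peaked in other knockout libraries. Med1cKO 4 had the most Myl7 but not the highest atrial marker sum. WT libraries had more of both channel genes and atrial sums of 204 to 388 FPKM. Any part of atrial tissue in these values was not tested. Without Med1cKO 4 the changes were -3.57 for Kcnj3 and -2.33 for Kcnj5. The 8 called members kept their calls without it, with Chrm2 at -1.15, Gnas at 0.68 and Gnao1 at 1.83.

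Of 8 tested genes that make, take up or break down catecholamines and acetylcholine, 2 were higher and 4 lower, and after rescaling 4 were lower and neither rise was called. Dbh, which converts dopamine to noradrenaline, had 0.110, 0.0356, 0.141 and 0.0664 FPKM in Med1cKO, against 2.25, 1.96, 2.38 and 2.17 FPKM in WT (log2 change -1.55 ± 0.117, adjusted p = 7.68e-06 in limma). The Med1cKO mean of Dbh, 0.0882 FPKM, was under the minimum, which the gene passed only through its WT mean of 2.19 FPKM. Th, which acts earlier in the same synthesis, was listed at 0 in all WT libraries and in Med1cKO 2 and 3, and was at 0.0970 and 0.221 FPKM in Med1cKO 1 and 4. Maob, a monoamine oxidase, averaged 5.26 FPKM in Med1cKO and 16.8 FPKM in WT (-1.54). Slc22a3, an extraneuronal monoamine transporter, changed by -1.17 with overlapping groups. Bche, which hydrolyses choline esters, changed by 0.54 with overlapping groups and was not called after rescaling (adjusted p = 0.121).

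**Figure D5:**
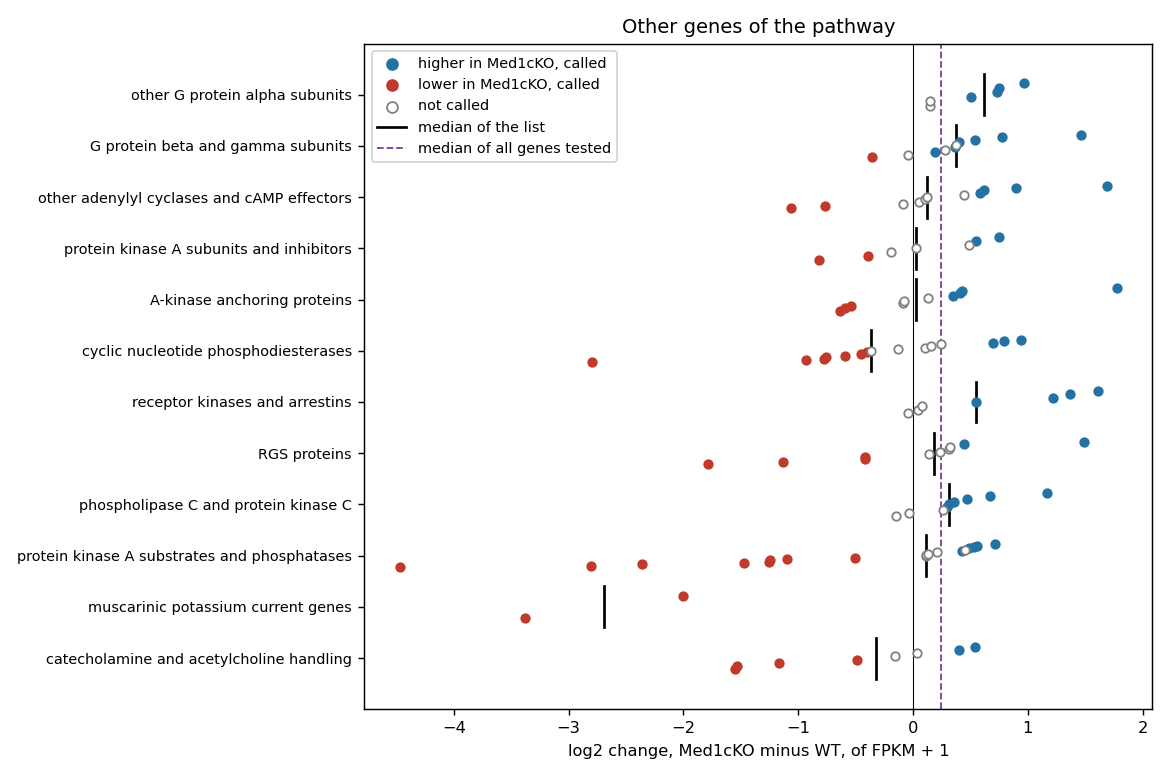
Log2 change, Med1cKO minus WT, of every tested gene in 12 pathway lists outside the 9 members, with called genes filled (blue higher, red lower) and uncalled genes open. Short vertical lines are list medians and the dashed line is the median of all genes tested, 0.25; Pln at -4.47 and Kcnj3 at -3.38 lie farthest left on this scale.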

How the data were processed

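Poly(A) RNA of mouse ventricles was measured in 4 Med1cKO and 4 WT libraries. The submitters' processing notes name TopHat 1.0.0, Cufflinks and Cuffdiff, and the build mm10. Per the file headers, one deposited table holds FPKM for each gene in each library, and a second deposited table holds the authors' results with pooled FPKM, log2 fold changes, a test statistic (a score), p-values and q-values. Annotation and strand use in counting were not stated. In 313 of 23847 rows a library held a word in place of a value, and those rows were left out; 0.001 FPKM, written for an estimate of zero, was set to 0. FPKM falls when other genes take more of a library. The FPKM table was not recoverable as fragment counts, so precision rests on 4 libraries per group.

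Genes that averaged 1 FPKM or more were tested with limma 3.58.1 (R 4.3.3, trend) on log2(FPKM + 1), two-sided, Benjamini-Hochberg adjusted over 11974 genes, with the steps first tested on simulated data. Ratios were tested with exact permutations in scipy 1.17.1. The 9 genes and the lists were chosen with earlier results of these data known. Named genes were all members, up to 4 called genes with the largest change per pathway list (otherwise the 2 most abundant), and the 3 genes most correlated with Adrb1 and with Adra1a; the markers Myl7, Uchl1 and Snap25, and Th, were named after their values were seen. Alternatives were quantile normalization, median-of-ratios rescaling, other minimums (none, or 5 FPKM), a pseudocount of 0.1, limma with array weights, with robust variances or without the trend, the replicate block, and each library left out. Same-numbered libraries of the groups did not deviate together (r from -0.0409 to 0.14), so the numbers were not taken to pair them. One pathway list and some markers are not reported here.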

Additional observations from a re-analysis of the deposited data

Results flagged for a closer look

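In 122 groups of 4 libraries, a single library stood far from the other libraries of its group for 10 genes, by the gap to its neighbour over the range; chance gives about 1 in 20 groups. Among the 9 members this was Adcy5 alone, at 15.7 FPKM in WT 2 with the other WT libraries at 20.9 to 21.0 FPKM. In Med1cKO, Prkar1a was 239.6 FPKM in library 1 (next 200.3 FPKM), Pde1c was 2.81 FPKM in library 2 (next 1.45 FPKM), and Grk4 was 4.34 FPKM in library 3 (next 3.24 FPKM). Ryr2 was low in Med1cKO 3 at 14.0 FPKM (next 22.2 FPKM), and Slc22a3 was high in Med1cKO 4 at 1.33 FPKM (next 0.158 FPKM). WT 1 was high for Arrb1 at 6.52 FPKM (next 5.23 FPKM), Rgs7 at 3.83 FPKM (next 2.93 FPKM) and Maob at 21.7 FPKM (next 15.8 FPKM). WT 2 was high for Akap1 at 50.9 FPKM (next 37.6 FPKM).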

How the results depend on the processing

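As deposited, 5371 genes were higher and 1964 lower. By construction a rescaling removes the common shift of 0.25, and 3236 genes were higher and 3223 lower after median-of-ratios rescaling and 3437 and 3067 after quantile normalization; 3 members were higher and 5 lower under both. With a minimum of 5 FPKM 3 members were lower, because Adra1a and Adrb1 were not tested. Leaving out 1 library at a time gave 4888 to 5263 genes higher, 1787 to 1957 lower, 3 members higher and 4 to 5 lower, Adra1a not being tested without WT 3. With the replicate block, 5089 genes were higher and 1867 lower, with 3 members higher and 5 lower, and Prkaca lost its call (adjusted p = 0.0509 in limma). The numbers do not pair the libraries. Of 150 member values under an alternative, 145 kept direction and call; the other 5 were Adcy5, which was never called and ran from -0.11 to 0.0704 with a library left out (positive without Med1cKO 3 or 4 or WT 1, 3 or 4). Of 783 values of other named genes, 767 kept both and 16 lost the call. With a library left out, the ratio difference was -0.29 to 0.17 for Adra1a to Adra1b, 0.67 to 0.81 for Adcy5 to Adcy6, 0.94 to 1.14 for Gnao1 to Gnai2, -0.25 to -0.16 for Gnas to Gnai2 and 0.13 to 0.47 for Adrb1 to Chrm2. Median-of-ratios rescaling before the ratio, added after the data were seen, turned the log2 ratio Adra1a to Adra1b to 0.0546 and kept the direction of the other 4. The replicate block gave sign-flip exact p of 0.125, the smallest 4 pairs allow, for Adcy5 to Adcy6, Gnao1 to Gnai2 and Gnas to Gnai2. With a pseudocount of 0.1 FPKM, the log2 changes of low genes were larger (Gng8 2.93, Grk4 2.12, Rgs11 3.23, Rgs7 -1.88, Dbh -3.64 and Slc22a3 -2.50). Adra1a, Dbh, Rgs7 and Slc22a3 averaged under 1 FPKM in Med1cKO, and Gng8, Grk4 and Rgs11 did so in WT. Each of these passed the minimum only through the group where it was high, which limits what its call shows. Fragment depth is unknown, which limits genes near 0 FPKM such as Adra1a.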
